A study of Mus musculus with 74 samples.

Results

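The 4 Hox gene clusters were examined by genome architecture mapping (GAM), which reads the proximity of loci from how often they fall into one and the same thin section of a nucleus. Each cluster was taken with its surroundings as a neighbourhood of 2.4 Mb, that is the 60 windows of 40 kb lying fully inside a fixed mm9 interval. The intervals were chr6:51000001-53400000 for Hoxa, chr11:95040001-97440000 for Hoxb, chr15:101080001-103480000 for Hoxc and chr2:73400001-75800000 for Hoxd. Together they held 240 of the 68162 windows of the table. The data were 74 libraries, each made from 1 nuclear profile (1NP), the slice of a single nucleus picked from a cryosection by laser microdissection. All came from 1 group of untreated 46C mouse embryonic stem (ES) cells of strain 129/Ola that carry a green fluorescent protein reporter at Sox1, grown with LIF and moved to serum-free medium before harvest. The study lists these profiles under a single culture, so every p-value below measures the spread between profiles of 1 culture. By their names the libraries form a set of 34 (prefix f13) and a set of 40 (prefix f14). What the prefixes stand for is not stated, and values within each prefix are given for detection, for linkage at 0.04 and 1 Mb, for pairs across the clusters and for co-segregation in trans.

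Hox genes encode transcription factors that bind DNA through a homeodomain and give cells their position along the body axis. In mammals they lie in 4 clusters on different chromosomes, copies of an ancestral cluster, and genes of the same number in different clusters (a paralogue group) resemble each other most. Genes within a cluster are switched on in the order in which they lie. In ES cells the clusters are largely silent, packed with the Polycomb mark H3K27me3 and rich in CpG islands, and contacts between Polycomb-bound loci over long distances have been described in such cells. The question here was how often each neighbourhood was detected, how strongly windows within it segregated together, and whether neighbourhoods on different chromosomes were found in the same profile more often than other stretches of those chromosomes.

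Paralogue group 9 is one of the groups with a member in all 4 clusters. The window holding Hoxa9 was positive in 2 libraries, that of Hoxb9 in 5, that of Hoxc9 in 3 and that of Hoxd9 in 8.

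The clusters also hold duplicated microRNA genes, shown here because their host windows are followed below. The mature sequences are from RefSeq (GRCm38.p6) with the seed, bases 2 to 8, in capitals. Mir10a lies within the annotated bounds of Hoxb4 and Mir10b within those of Hoxd4 and Hoxd3, and their 5p products share a seed.
miR-10a-5p: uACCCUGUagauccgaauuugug
miR-10b-5p: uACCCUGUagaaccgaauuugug
Mir196a-1 lies in the Hoxb cluster, Mir196a-2 in the Hoxc cluster and Mir196b in the Hoxa cluster. Both Mir196a genes give the same 5p product, which shares its seed with that of Mir196b.
miR-196a-5p: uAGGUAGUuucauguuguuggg
miR-196b-5p: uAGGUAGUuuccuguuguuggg
Windows of Mir10a were positive in 7 libraries and those of Mir10b in 5, with 1 library (f13f4) positive for both. Mir196b was detected in 2 libraries, Mir196a-1 in 5 and Mir196a-2 in 3, and no library was positive for any pair of them, where the product of the detection rates gives 0.0811 to 0.203 libraries per pair.

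In the GENCODE annotation of the same build, the Hox genes of each neighbourhood spanned a small part of it. The Hoxa span held 11 protein-coding Hox genes within the 4 windows of chr6:52080001-52240000, flanked by Skap2, an adaptor protein of immune cell signalling, and Evx1, a homeobox gene. The Hoxb span held 10 genes in 173.9 kb (chr11:96055630-96229570), between Ttll6 and Skap1. The Hoxc span held 9 genes in 115.7 kb (chr15:102751534-102867274), between Gm17649 and Smug1, a uracil-DNA glycosylase. The Hoxd span held 9 genes in 96.8 kb (chr2:74506367-74603200), between Evx2 and Mtx2, a mitochondrial outer membrane protein. The spans touched 4, 5, 4 and 4 windows. The Hoxc span was not central, with 41 windows before it and 15 after, because its interval ends near the end of the chromosome. Gene content differed, with 23 protein-coding genes in the Hoxa, 57 in the Hoxb, 82 in the Hoxc and 21 in the Hoxd interval.

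Over the whole table, a library was positive in 5.66% ± 2.897 (SD, n = 74) of autosomal windows, from 0.0210% to 13.5%, and 5 libraries lay under 1%. The table holds calls and no reads, and the read depth behind a call was not used here. Each window rests on 74 yes-or-no calls, and Wilson 95% intervals given below cover this counting error only.

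Detection of the 4 neighbourhoods did not differ from the rest of their chromosomes beyond the spread between libraries. On average, a library was positive in 4.62% ± 10.4 (SD, n = 74) of the Hoxa windows, against 6.13% ± 6.19 of the other windows of chromosome 6, a ratio of 0.754. The Hoxb neighbourhood stood at 6.01% ± 12.5 against 6.24% ± 6.41 on chromosome 11, a ratio of 0.964. The Hoxc neighbourhood stood at 6.71% ± 13.03 against 5.44% ± 6.67 on chromosome 15, a ratio of 1.23. The Hoxd neighbourhood stood at 7.12% ± 15.96 against 5.77% ± 6.24 on chromosome 2, also a ratio of 1.23. These means rest on a minority of libraries. The neighbourhood was above the rest of its chromosome in 14 libraries and below it in 59 for Hoxa, 16 and 55 for Hoxb, 19 and 46 for Hoxc, and 18 and 56 for Hoxd, so most libraries lay below in all 4, Hoxc and Hoxd included. Such a split was not particular to the Hox neighbourhoods. The most detected block of chromosome 6 (chr6:36600001-39000000, ratio 1.545) was above in 26 libraries and below in 47. Few blocks went the other way, such as chr2:97400001-99800000 with 40 above and 34 below. Two-sided sign-flip permutation tests over libraries (100000 flips) gave p = 0.166, 0.853, 0.428 and 0.413 for Hoxa to Hoxd, and adjusted p = 0.694, 0.997, 0.925 and 0.914 over the 230 consecutive 60-window blocks of the 4 chromosomes. Sign-flip tests assume differences that are symmetric about 0. Here the differences had a skewness of 1.211, 1.547, 1.415 and 1.913 for Hoxa to Hoxd, so these p-values are approximate. None of the 4 was called, against 3.04% of all blocks at an adjusted p under 0.05 and 10.4% at an unadjusted one. All 7 called blocks were detected less often than their chromosome, and 2 of them held no positive call at all. Those 2 lay near the starts of chromosomes 6 and 15 (chr6:600001-3000000 and chr15:280001-2680000). Windows that were never positive count in the rest of each chromosome. Among windows positive in at least 1 library, the detection ratios of Hoxa to Hoxd were 0.729, 0.94, 1.22 and 1.18. Among the blocks of its chromosome, Hoxa ranked 56 of 62 from the highest detection, Hoxb 31 of 50, Hoxc 10 of 43 and Hoxd 14 of 75.

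Differences between the neighbourhoods were also within this spread. The widest gap, between Hoxa and Hoxd, was -2.50 ± 2.28 percentage points (Hoxa minus Hoxd, SE, n = 74), with a permutation p of 0.285. The 6 pairwise comparisons all had an adjusted p of 0.869. Hoxa was higher in 19 libraries and Hoxd in 19. Within prefixes, the Hoxb ratio was 1.15 in f13 (permutation p = 0.623) and 0.736 in f14 (p = 0.271), and the Hoxd ratio was 1.02 in f13 (p = 0.969) and 1.4 in f14 (p = 0.333). Hoxa lay below its chromosome in both prefixes (0.819 and 0.704) and Hoxc above it in both (1.18 and 1.30).

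Most profiles missed a given neighbourhood altogether, and the others held from 1 to many of its windows. No Hoxa window was positive in 51 of 74 libraries, and the other 23 held between 1 and 35. For Hoxb 21 libraries held any positive window, for Hoxc 26 and for Hoxd 22. A neighbourhood was called present in a library when at least 6 of its 60 windows were positive. By that rule Hoxa was present in 13 libraries (17.6%, Wilson 95% interval 10.6 to 27.8%), Hoxb in 15 (20.3%, 12.7 to 30.8%), Hoxc in 17 (22.97%, 14.9 to 33.8%) and Hoxd in 15. Of the libraries with any positive window, 10 of 23 for Hoxa, 6 of 21 for Hoxb, 9 of 26 for Hoxc and 7 of 22 for Hoxd had 1 to 5 and so fell short of the rule. In libraries where it was present, the median number of positive windows was 13 for Hoxa, 15 for Hoxb, 15 for Hoxc and 18 for Hoxd.

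**Figure D1:**
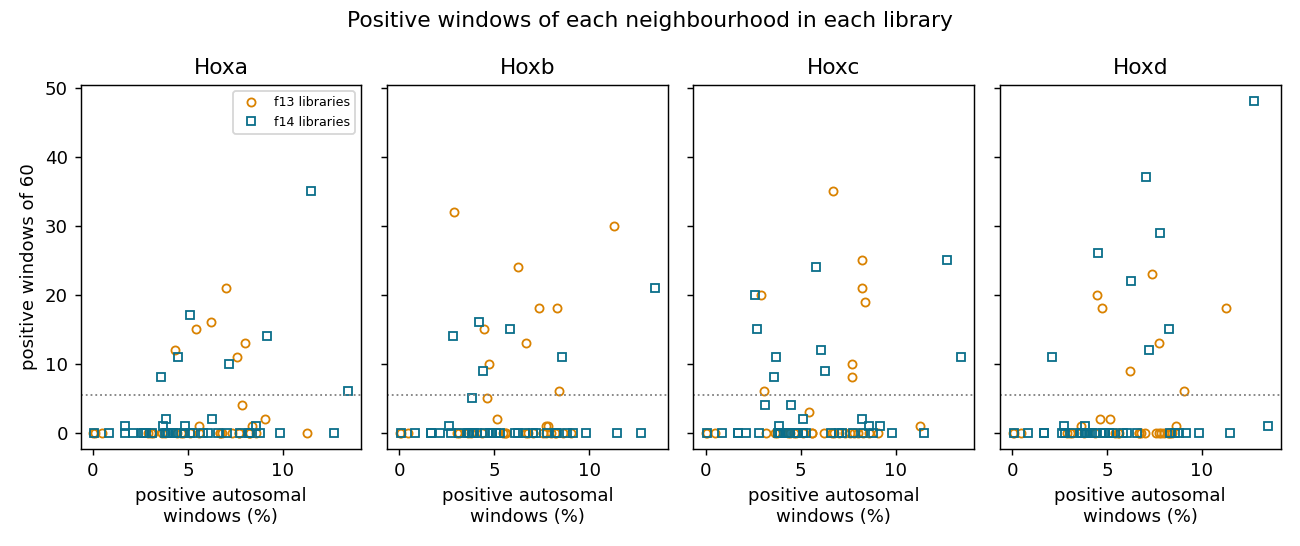
Positive windows of each neighbourhood (of 60, vertical axis) in each of the 74 libraries, against the percentage of autosomal windows positive in that library (horizontal axis). Circles are f13 and squares f14 libraries, and the dotted line separates libraries with at least 6 positive windows. Most libraries sit at or near 0, and the highest point is Hoxd in f14b1 with 48 windows.

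A few libraries carried much of each neighbourhood's signal. The 5 fullest libraries held 50.7% of the positive calls of Hoxa, 46.8% of Hoxb, 43.6% of Hoxc and 51.6% of Hoxd. For Hoxa these were led by f14c5 with 35 positive windows, 26 of them in an unbroken run of 1.04 Mb after the cluster. For Hoxd they were led by f14b1, with 48 of 60 windows positive. The fullest library was f13c1 for Hoxb, with 32 windows, and f13d4 for Hoxc, with 35. The longest unbroken runs of the other neighbourhoods were 0.4 Mb for Hoxb, 0.44 Mb for Hoxc and 0.48 Mb for Hoxd. Positive windows with no positive neighbour made up 26.3% of calls in Hoxa, 21.7% in Hoxb, 26.9% in Hoxc and 19.9% in Hoxd, beside 27.04% over the autosomes. Libraries with a neighbourhood present had a higher overall coverage, with medians of 7.02, 6.23, 6.27 and 7.19% of autosomal windows for Hoxa to Hoxd against 5.10 to 5.14% in the libraries without it.

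The windows of the Hox gene spans were detected in 1 to 3 libraries in the Hoxa cluster, 4 to 9 in Hoxb, 2 to 6 in Hoxc and 4 to 8 in Hoxd, so that Hoxa and Hoxc overlapped. The 4 windows of the Hoxa span were positive in 1, 1, 2 and 3 libraries, the last being the window of Hoxa13. Together they were seen in 4 libraries (5.41%, Wilson 95% interval 2.12 to 13.1%). Library f13b1 was positive in all 4 of these windows, f13g4 only in the window of Hoxa7 to Hoxa11, and f13b3 and f14c5 only in that of Hoxa13. Of 3661 stretches of 4 windows with any positive call on chromosome 6, 79 (2.16%) were seen in 4 libraries or fewer, and the median stretch was seen in 9. Evx1, next to Hoxa13, was positive in 1 library. The Hoxa genes Hoxa2, Hoxa4 and Hoxa5 were each seen in f13b1 alone.

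The 5 windows of the Hoxb span were positive in 7, 4, 5, 7 and 9 libraries. The lowest value was in the window between Hoxb13 and Hoxb9, which holds no Hox gene. The highest was in the window of Hoxb1, Hoxb2 and part of Hoxb3. Wilson intervals of these 2 windows overlapped (2.12 to 13.1% and 6.53 to 21.5%). The 5 Hoxb span windows together were seen in 13 libraries (17.6%, 10.6 to 27.8%), where the median stretch of 5 windows on chromosome 11 was seen in 10 and 22.1% of stretches were seen in at least as many. The Hoxc span windows were positive in 6, 2, 3 and 3 libraries, highest at Hoxc13, and in 8 libraries together (10.8%, 5.58 to 19.9%), the same as the median stretch of chromosome 15. The Hoxd span windows were positive in 4, 8, 5 and 4 libraries, highest at the window of Hoxd8 to Hoxd10, and in 11 libraries together (14.9%, 8.51 to 24.7%) against a median of 9 on chromosome 2. The Wilson intervals of the 4 spans overlapped. The whole Hoxa span was positive in f13b1 and the whole Hoxd span in f13c2, and no library held all windows of the Hoxb or the Hoxc span.

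Over whole neighbourhoods, spans included, detection varied from 0 to 11 libraries per window. The mean was 3.42 ± 1.49 (SD, n = 60 windows) in Hoxa, 4.45 ± 1.88 in Hoxb, 4.97 ± 2.53 in Hoxc and 5.27 ± 1.85 in Hoxd. The highest of all 240 windows, with 11 libraries (14.9%), lay in the Hoxc neighbourhood over Pde1b, a phosphodiesterase, Ppp1r1a, an inhibitor of protein phosphatase 1, and Glycam1. The windows never detected were 1 in the Hoxb neighbourhood, over Arhgap23, Srcin1 and 4933428G20Rik, and 2 in the Hoxc neighbourhood. One of those held the nuclear receptor gene Nr4a1 with 9430023L20Rik and the other Krt80 with Mir1941. For a window never detected, the upper limit was set at 3 of 74 libraries (4.05%), a fixed floor of 3 counts and not a Wilson interval.

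The Hoxc neighbourhood was the most uneven. Near its start lies a row of keratin genes, which encode filament proteins of epithelia. The 18 windows over the 23 keratin genes there (chr15:101160001-101880000) were positive in 3.67 ± 2.00 libraries on average (SD over windows), against 5.75 ± 2.38 in the 40 windows that follow. The windows of Krt8 and Krt18, the last keratin genes of the row, were positive in 8 libraries each, whereas 11 of the 18 stood at 3 libraries or fewer. In the Hoxd neighbourhood, the gene-free stretch between Mtx2 and Hnrnpa3 (19 windows, chr2:74720001-75480000) on the Hoxd1 side was seen in 5.79 ± 2.04 libraries per window. The gene-free stretch on the Hoxd13 side, between Atp5g3 and Lnp (14 windows, chr2:73760001-74320000), was seen in 4.57 ± 1.399. Both stretches are known for limb enhancers of the Hoxd genes. Windows of 1 stretch are neighbours and come from the same few profiles, so these SDs describe the stretches and no test was made.

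**Figure D2:**
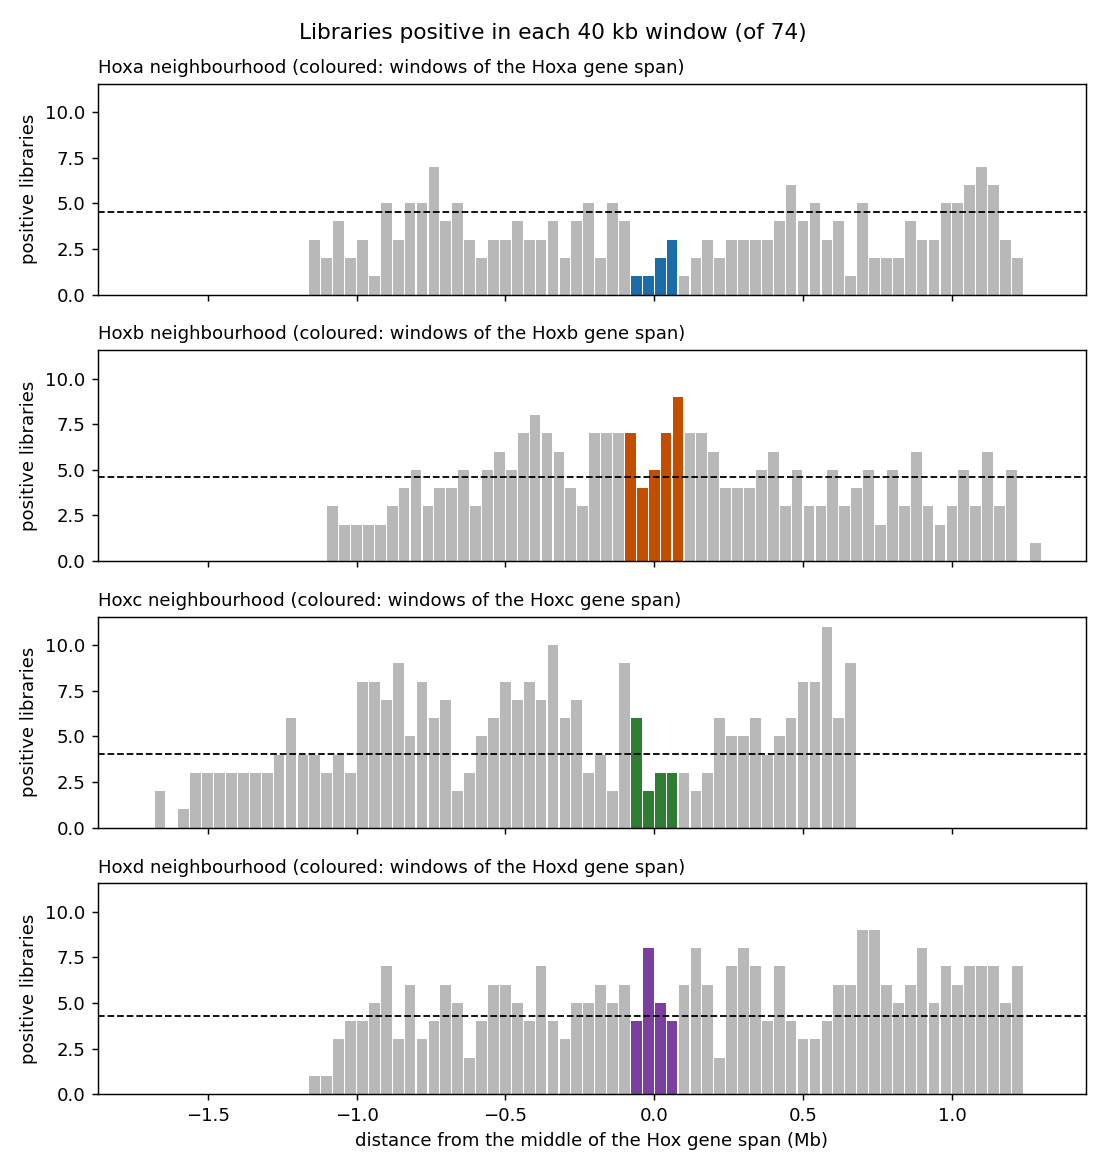
Number of libraries (of 74) positive in each 40 kb window, by distance from the middle of the Hox gene span in Mb. Coloured bars are the windows of the Hox gene span, of which 1 in Hoxb holds no Hox gene, and the dashed line is the mean of the other windows of the chromosome, 4.53 libraries for Hoxa, 4.62 for Hoxb, 4.03 for Hoxc and 4.27 for Hoxd. The Hoxa span sits at 1 to 3 libraries, below that line, and the Hoxb span reaches 9.

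On average the windows of the spans had a higher CpG density than their neighbourhoods, which the intervals were not chosen for. Mean CpG density was 23.9 per kb in the Hoxa span windows, 19.6 in Hoxb, 18.2 in Hoxc and 22.99 in Hoxd, against 11.2, 14.7, 11.6 and 10.5 per kb over the whole neighbourhoods. GC content was 47.99, 48.5, 47.5 and 47.1% in the spans, beside 43.7, 47.5, 46.7 and 42% over the neighbourhoods. Not every span window was dense: those with at least 15 CpG per kb were 4 of 4 in Hoxa, 3 of 5 in Hoxb, 3 of 4 in Hoxc and 3 of 4 in Hoxd. The 2 others in Hoxb, at 14.6 and 12.9 per kb, lay below the mean of their neighbourhood. In Hoxa, the 7 windows with at least 15 CpG per kb were positive in 1.86 libraries on average and the others in 3.62. On chromosome 6 as a whole, the 105 windows of that density averaged 4.30 libraries and the others 4.62. In Hoxb, the 24 dense windows averaged 4.04 libraries and the others 4.72, beside 4.36 and 4.78 on chromosome 11. In Hoxc, the 10 dense windows averaged 4.70 and the others 5.02, beside 3.91 and 4.199 on chromosome 15. In Hoxd there were 3 dense windows, all in the span, which averaged 5.67 libraries against 5.25 in the others, beside 4.80 and 4.34 on chromosome 2. Across the 60 windows of a neighbourhood, the correlation of detection with GC content was r = -0.33 in Hoxa, -0.19 in Hoxb, -0.42 in Hoxc and -0.003 in Hoxd, and over all windows free of unknown bases on chromosomes 6, 11, 15 and 2 it was 0.007, -0.06, -0.09 and 0.13. These are descriptions over neighbouring windows that share libraries, and the part of base composition in the calls was not tested.

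Within the neighbourhoods, adjacent windows were often found in the same profiles. At 1 Mb mean D', defined next, was lowest in Hoxa and highest in Hoxd over all windows and libraries. That difference was not tested, and Hoxb and Hoxc lay alike between them. This order did not hold among windows detected in 5 to 10% of libraries or within f13, as given below. Linkage was measured as D', the co-segregation of a window pair minus that expected from the detection of each window, divided by the largest value it could take. D' is 1 when the rarer window is always found with the commoner one, 0 at independence and negative when they are found together less often than that. A pair of rarely detected windows never found together has a D' of -1. Adjacent windows had a mean D' of 0.59 ± 0.26 in Hoxa, 0.61 ± 0.16 in Hoxb, 0.50 ± 0.14 in Hoxc and 0.66 ± 0.14 in Hoxd (jackknife SE over 74 libraries). The medians of the other blocks of their chromosomes lay at 0.55, 0.57, 0.52 and 0.54. Without its fullest library, the value was 0.38 in Hoxa (f14c5), 0.49 in Hoxb (f13c1) and 0.38 in Hoxc (f13d4), each below that median, and 0.547 in Hoxd (f14b1). Within prefixes, the values of Hoxa to Hoxd were 0.69, 0.59, 0.58 and 0.52 in f13 and 0.54, 0.43, 0.28 and 0.75 in f14.

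At 1 Mb, mean D' was -0.40 ± 0.32 in Hoxa, the lowest of 61 blocks on chromosome 6, whose other blocks had a median of 0.03. Its rank from the highest was 60 at 0.96 Mb and 59 at 1.04 Mb, but 5 at 0.24 Mb. In counts, a pair of Hoxa windows 1 Mb apart was found together in 0.457 libraries on average, and 20 of the 35 pairs were never found together. Of the libraries positive for either window, 7.51% held both, also the lowest of 61 blocks, against a median of 15.6%. That share comes from the same calls at the same distance and is not separate evidence. By contrast, mean D' in Hoxd was 0.48 ± 0.13 at 0.4 Mb, where it ranked 3 of 75 blocks, and still 0.44 ± 0.20 at 1 Mb, where it ranked 2 of 73. Hoxd window pairs 1 Mb apart were found together in 2.17 libraries on average, 2 of the 35 pairs were never together, and 25.9% of libraries positive for either window held both, against a median of 15.3%. Hoxb (0.12 ± 0.24) and Hoxc (0.15 ± 0.29) lay near their chromosomes' medians of 0.12 and 0.05 at that distance.

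**Figure D3:**
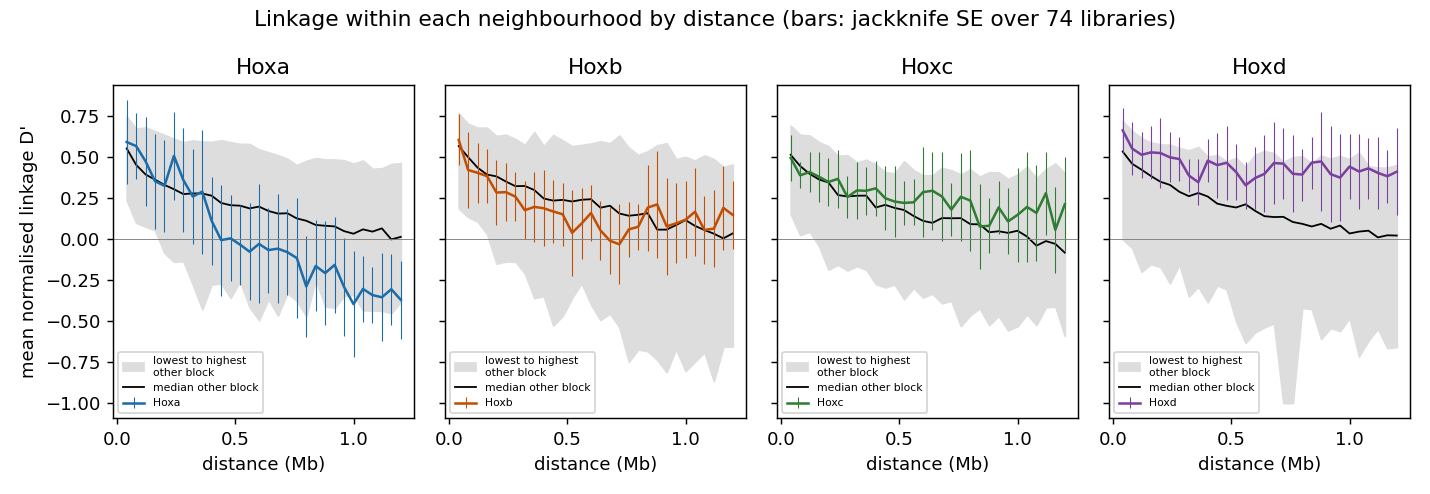
Mean D' (vertical axis) of window pairs within each neighbourhood against their distance in Mb, with jackknife standard errors over 74 libraries. The grey band runs from the lowest to the highest other 60-window block of the chromosome and the black line is their median. The Hoxa line runs above or slightly below the median up to 0.36 Mb and below it from 0.4 Mb on. The Hoxd line stays between 0.3 and 0.7.

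These contrasts rest on few libraries. Among windows positive in 5 to 10% of libraries, mean D' at 1 Mb was 0.33 in Hoxa and 0.37 in Hoxd. In Hoxb and Hoxc it was 0.22 and 0.20 there. The Hoxa value thus changed sign with the windows kept, and the cause was not tested. The Hoxd value at 1 Mb was -0.21 in the 34 f13 libraries and 0.52 in the 40 f14 libraries, and without f14b1 it was 0.27. The Hoxa value was -0.67 in f13 and -0.38 in f14, and -0.70 without f14c5. The Hoxb values were 0.25 in f13 and -0.17 in f14, and the Hoxc values, 0.00706 in f13 and -0.024 in f14, both lay below the pooled one. Without their fullest libraries, f13c1 and f13d4, the Hoxb and Hoxc values at 1 Mb were -0.06 and -0.10. Several libraries held Hoxa windows on only 1 side of the cluster. Libraries f13b3 and f13a2 held 15 and 11 windows after the cluster and none before it, and f13d3 and f14d1 held 12 and 8 windows before it and none after. Library f14c5, without which the value was lower still, held 26 of 29 windows after the cluster, 8 of 27 before it and 1 of 4 in it. In all, 9 of the 13 libraries with Hoxa present held windows on both sides of the cluster. For Hoxb, Hoxc and Hoxd this was so in 14 of 15, 14 of 17 and 14 of 15 libraries.

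Co-segregation across the Hox genes was compared with co-segregation beside them. For window pairs up to 0.6 Mb apart, the percentage of libraries holding both windows was computed for pairs with the whole span between them and for pairs on the same side at the same distance. Unlike D', this percentage is not corrected for how often each window was detected, which differed along the neighbourhoods. In Hoxa, pairs across the cluster were found together in 1.31% of libraries and pairs beside it in 1.57%, a difference of -0.26 ± 0.51 percentage points (SE, n = 74). The values were 2.82 and 1.73% in Hoxb, 2.18 and 2.41% in Hoxc, and 4.07 and 3.02% in Hoxd, differences of 1.10 ± 1.03, -0.23 ± 0.68 and 1.04 ± 0.94 points. None exceeded the spread between libraries (two-sided sign-flip permutation tests, adjusted p = 0.740, 0.675, 0.740 and 0.675 over the 4 neighbourhoods). Pairs across the Hoxd cluster were together more often in 6 libraries and those beside it in 9. Within prefixes, the Hoxc difference was 0.981 points in f13 (permutation p = 0.374) and -1.26 in f14 (p = 0.176). The other 3 had the same sign in both sets, with -0.293 and -0.238 points in Hoxa, 1.68 and 0.602 in Hoxb and 0.547 and 1.47 in Hoxd. Without library f14b1 the pooled Hoxd difference was 0.622 points.

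The same question was put to each position by taking the mean D' between the 400 kb before it and the 400 kb after it. At the middle of the span, to the nearest window edge, this was 0.09 ± 0.44 in Hoxa, 0.29 ± 0.42 in Hoxb, 0.29 ± 0.19 in Hoxc and 0.58 ± 0.12 in Hoxd (jackknife SE). The Hoxa value changed with the size of the square, being 0.35 with 5 windows and -0.13 with 15 windows on each side in place of 10, and that of Hoxc was 0.0570 with 5 windows. Of all positions of their chromosomes, 26.2, 45.9, 56.2 and 94.6% had a lower value. No neighbourhood had its lowest linkage at the Hox genes. In Hoxa the lowest value (-0.24) lay 1 Mb before the cluster's middle and the highest (0.64) after it, over Jazf1, a zinc finger gene. In Hoxb the lowest (-0.24) lay 0.8 Mb before the middle, in Hoxc (0.02) 1.48 Mb before it, and in Hoxd (-0.17) 1.16 Mb before it, at the edge of the interval.

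**Figure D4:**
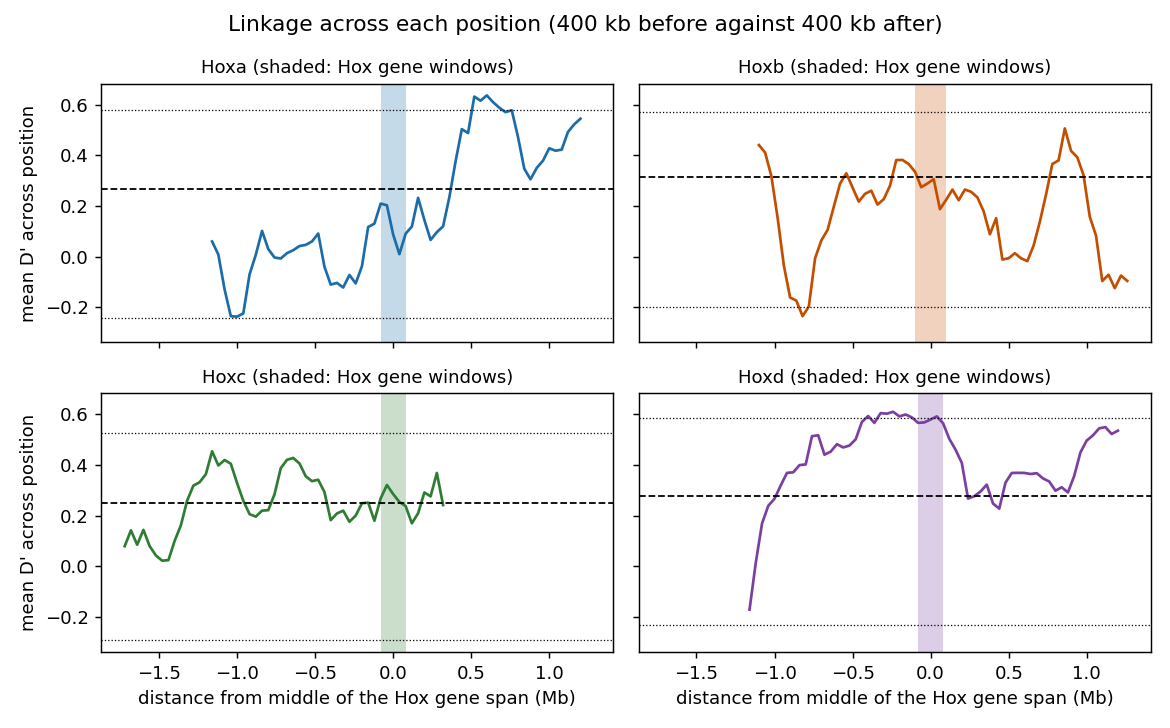
Mean D' between the 400 kb before and the 400 kb after each position (vertical axis), by distance of the position from the middle of the Hox gene span in Mb. The shaded band marks the windows of the Hox gene span, the dashed line the median of the chromosome and the dotted lines its 5% and 95% points. Hoxd stands near the upper dotted line over its Hox genes, and Hoxa lies below the median there.

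Co-segregation in trans, between neighbourhoods on different chromosomes, did not pass the test for any of the 6 pairs of neighbourhoods. No Hox neighbourhood was present in 32 of the 74 libraries, 1 was in 26, 2 were in 14, 3 were in 2, and no library held all 4. The libraries with 3 were f13b3 (Hoxa, Hoxb and Hoxd) and f14b3 (Hoxa, Hoxb and Hoxc), and the latter had the highest overall coverage, 13.5% of autosomal windows. Because libraries of high coverage hold more of every locus, shared presence was tested within 5 strata of coverage by an exact two-sided conditional test, and p-values were adjusted over all 19187 pairs of blocks on different ones of the 4 chromosomes.

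Hoxb and Hoxd were present together in 5 libraries, f13b2, f13b3, f13c2, f13c5 and f13f4, where 2.94 were expected (exact p = 0.148). Hoxb and Hoxc were also together in 5 libraries, f13c1, f13d4, f13f2, f14b3 and f14f4, against 3.72 expected (exact p = 0.489). Hoxc and Hoxd shared 3 libraries, f13f1, f14b1 and f14e3, against 3.34 expected (exact p = 1). Hoxa shared 2 libraries with Hoxb (2.67 expected, exact p = 0.719), 2 with Hoxc (3.01 expected, exact p = 0.718) and 3 with Hoxd (3.04 expected, exact p = 1). Without f13b3, Hoxa and Hoxb shared 1 library against 2.42 expected, and without f14b3 Hoxa and Hoxc likewise shared 1 against 2.42. All 6 had an adjusted p of 1. Of all block pairs, 0.00521% were called at an adjusted p under 0.05 and 4.05% at an unadjusted one. More libraries than expected were seen for 2 of the 6 Hox pairs and for 55.7% of all pairs. With these numbers of libraries, 6 shared libraries for Hoxa with Hoxb and 7 for each other pair would have been needed for an unadjusted p under 0.05, and smaller excesses were not detectable. A share of 5 of 74 libraries has a Wilson 95% interval of 2.92 to 14.9%, and one of 2 of 74 an interval of 0.744 to 9.33%.

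All 5 libraries shared by Hoxb and Hoxd came from the f13 set. Within f13 the expected number was 2.57 (exact p = 0.0465, and 0.558 when adjusted over the 12 tests within prefixes), and within f14 no library held both where 1.13 were expected (exact p = 0.305). The other 5 pairs were spread over both sets or, for Hoxa with Hoxc, seen in f14 only.

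The comparison was repeated on single windows. Averaged over the 3600 window pairs of 2 neighbourhoods, co-segregation was 0.704% of libraries for Hoxb with Hoxc, 0.634% for Hoxb with Hoxd and 0.631% for Hoxc with Hoxd. Relative to the value expected from window detection and library coverage, these were 1.39 ± 0.48, 1.18 ± 0.48 and 1.05 ± 0.72 (jackknife SE), and the median block pairs of the same chromosomes stood at 1.11, 0.847 and 0.877. The pairs with Hoxa were lower, at 0.203% with Hoxb, 0.119% with Hoxc and 0.231% with Hoxd. Relative to expected these were 0.581 ± 0.438, 0.306 ± 0.127 and 0.557 ± 0.321, where the median block pairs stood at 0.731, 1.01 and 1.00. Of the block pairs of chromosomes 6 and 15, 97.0% had a higher ratio than Hoxa with Hoxc, and for the other 5 Hox pairs 23.1 to 84.4% did. Within prefixes, Hoxb with Hoxd stood at 2.38 in f13 and 0.0425 in f14, and Hoxc with Hoxd at 0.207 in f13 and 1.56 in f14, differences that were not tested. Hoxb with Hoxc stood at 1.37 and 1.39. The pairs with Hoxa were below 1 in both sets, at 0.664 and 0.447 with Hoxb, 0.128 and 0.474 with Hoxc and 0.407 and 0.631 with Hoxd. Single libraries weighed heavily. Library f14b1 gave 71.4% of the co-detected window pairs of Hoxc and Hoxd, and without it their ratio was 0.384. Library f13b3 gave 70.98% of those of Hoxa and Hoxb, and without it that ratio was 0.198. Without f14a2 the ratio of Hoxa with Hoxd was 0.338, and without f13b2 that of Hoxb with Hoxd was 0.947.

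**Figure D5:**
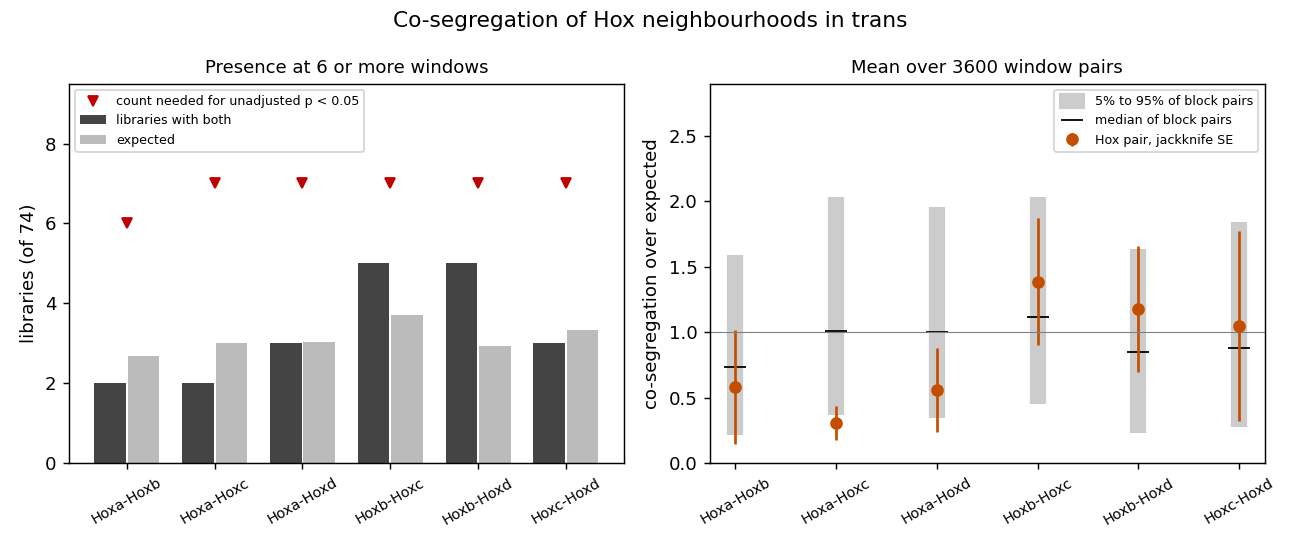
Left, libraries (of 74) in which both neighbourhoods of a pair were present, beside the number expected within coverage strata, with triangles at the smallest count above expectation that gives an unadjusted p under 0.05. Right, mean co-segregation over expected with jackknife standard errors over libraries, beside the 5% to 95% range and median of all block pairs of the same chromosomes. All 6 observed counts lie below the triangles, and Hoxa with Hoxc is the only pair outside the grey range.

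Shared detection was also counted for the Hox gene spans and genes, with the expected number taken as the product of the detection rates, without a term for library coverage. The Hoxa span was never positive in a library in which another span was, where 0.703 libraries were expected for Hoxb, 0.432 for Hoxc and 0.595 for Hoxd. The Hoxc and Hoxd spans were not found together either, against 1.19 expected. These expected numbers are small, and by the same floor of 3 counts a count of 0 of 74 libraries allows up to 4.05%. The Hoxb and Hoxc spans shared 3 libraries (f13c1, f13d4 and f14f4) against 1.41 expected, and the Hoxb and Hoxd spans 3 others (f13b2, f13c5 and f13f4) against 1.93. Among the 40 examined pairs of Hox paralogues on different chromosomes, 32 were never found together, 5 in 1 library, 2 in 2 libraries and 1 in 3. The last was Hoxb3 with Hoxd3, seen in f13b2, f13c5 and f13f4, against 1.46 expected. Hoxb6 with Hoxc6 and Hoxb13 with Hoxc13 were each together in f13c1 and f13d4, against 0.541 and 0.568. Summed over the 40 pairs, which overlap in windows and libraries, 12 shared detections were seen and 11.2 expected. For the 21 pairs with a Hoxa gene, the sums were 0 and 3.28.

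Gene families that were duplicated along with the clusters were counted in the same way. Cbx proteins bind methylated histone H3 in heterochromatin, Hnrnpa proteins bind RNA, Nfe2 proteins are stress and blood transcription factors, Atp5g genes encode a subunit of ATP synthase and Copz genes a subunit of coat protein complex I. Over 28 pairs of these and of Evx, Skap, Snx, Calcoco, Atf and microRNA genes on different chromosomes, 19 were never together, 8 in 1 library and 1 in 3, with 11 shared detections against 15.03 expected from detection alone. The pair seen in 3 libraries was Atf7, in the Hoxc neighbourhood, with Atf2, in the Hoxd neighbourhood (f14a7, f14b1 and f14b3), both transcription factors that bind cyclic AMP response elements, where 2.23 were expected. Library f13c1, the fullest for Hoxb, was the single library for Cbx1 with Cbx5, Nfe2l1 with Nfe2, Atp5g1 with Atp5g2 and Copz2 with Copz1. The 3 Hnrnpa genes, Hnrnpa2b1 in 7 libraries and Hnrnpa1 and Hnrnpa3 in 5 each, were never found together, against 0.338 to 0.473 expected per pair.

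Along their own chromosomes, the co-segregation of each neighbourhood with blocks 2.4 to 19.2 Mb away lay within the range of other block pairs at the same distance. For the block directly before Hoxd the co-segregation was 2.83 times the expected value and for the block directly after it 3.24 times, where pairs of adjacent blocks of chromosome 2 had a median of 3.03. For Hoxa the values were 3.05 before and 2.21 after (median 2.73), for Hoxb 2.26 and 2.41 (median 2.63) and for Hoxc 2.53 before (median 3.05). At 9.6 Mb, the block before Hoxd stood at 2.92 against a median of 2.10, with 5 of 69 block pairs higher, and the block after Hoxb stood at 1.00 against 1.91, with 43 of 44 higher. The largest trans ratio of the Hox pairs, 1.39 for Hoxb with Hoxc, lay below the medians of blocks up to 9.6 Mb apart on chromosomes 11 and 15.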

How the data were processed

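Nuclear profiles of 46C mouse ES cells were cryosectioned, microdissected, amplified with a whole-genome amplification kit and sequenced as Nextera libraries, 1 profile per library. The authors deposited a single table of calls, of the kind other than counts, in which each 40 kb window of mm9 is positive (1) or negative (0) in each library. The submitters' processing notes name Bowtie2 2.1. In the study's methods, duplicate reads were discarded, and for libraries of several profiles a window was called by a set number of reads. The rule behind the calls of these single-profile libraries is not given in the sources used here. A threshold can make a shallow library look emptier and break a continuous stretch into scattered windows, which was not tested here. PCR reads are not independent molecules, and intervals cover counting error only.

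Windows were selected by coordinates. Genes were taken from GENCODE on a genome whose lengths of the 4 chromosomes equal the ends of the table's last windows, and symbols are those of that annotation. The members, gene families and tests were chosen with earlier results of these data known. Named genes are Hox genes (1 item is not reported here), the nearest protein-coding gene on each side of each span, families duplicated with the clusters (Jazf1 included), and the genes of the most detected and never detected windows. The keratin genes and the gene-free stretches were chosen after their values were seen. The microRNA families were added after the annotation was seen.

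Detection was compared with the rest of the chromosome by sign-flip permutation over the 74 libraries, with Benjamini-Hochberg adjustment over 230 blocks of 60 windows. Co-segregation across and beside the Hox genes was compared in the same way over the 4 neighbourhoods. Shared presence (at least 6 of 60 windows) was tested by an exact conditional test within 5 strata of autosomal coverage, taken outside the 4 chromosomes. Expected co-segregation of windows is the product of the detection rates times a term for the spread of library coverage. Standard errors of D' and of these ratios come from leaving out each library in turn (jackknife). D', the detection test and the test of shared presence were tested on simulated data. The effects placed in those data were stronger than any seen here, so the power for weaker ones was not examined. Python 3.11.15, numpy 2.4.6, scipy 1.17.1 and pandas 2.3.3 were used. Alternatives were leaving out libraries under 1% coverage, removing isolated positive windows, other backgrounds, distances, square sizes, presence rules and strata, and windows detected in 5 to 10% of libraries. Leaving out the fullest library was added after seeing the data.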

Additional observations from a re-analysis of the deposited data

How the results depend on the processing

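No paired analysis between groups was possible because the libraries form 1 group, and the sign-flip tests compare loci within each library. The 32 values above were recomputed under 146 alternatives, of which 28, the fullest or top library left out, were chosen after seeing the data. The 82 of these that have a test gave no adjusted p under 0.05, as in the values reported, and the others have no test. In trans, where 6 or 7 shared libraries were needed for even an unadjusted p under 0.05, this says nothing about stability. The lowest adjusted p was 0.491 for detection, 0.419 for co-segregation across the clusters and 0.811 for shared presence in trans (lowest unadjusted exact p 0.0985). Values moved to the other side of 1 (ratios) or 0 (differences and D') as follows, the cause not tested. The Hoxb detection ratio was 1.06 against all autosomes. The difference across the Hoxa cluster was 0.0214 points with isolated windows set to negative, and that across Hoxc was 0.04002 points with distances up to 20 windows, beside -0.681 with distances up to 10 windows and -0.362 with isolated windows set to negative. In trans, the ratio of observed to expected shared libraries was 1.14 for Hoxa with Hoxb at a presence of 15 windows and 1.30 for Hoxa with Hoxc at a presence of 1 window. For Hoxa with Hoxd it was 1.09 without libraries under 1% coverage, 1.07 with 3 strata and 1.07 with 10 strata. For Hoxc with Hoxd it was 1.18 at 1 window, 1.12 at 15 windows and 1.08 with 10 strata. The same ratio moved by over 1.5 times away from 1 with isolated windows set to negative, to 0.475 for Hoxa with Hoxb, 0 for Hoxa with Hoxc and 0.461 for Hoxa with Hoxd, and it was 0 for the last 2 at a presence of 15 windows. It was 0.413 for Hoxa with Hoxb without f13b3 and 0.413 for Hoxa with Hoxc without f14b3. The mean co-segregation ratio of Hoxb with Hoxd was 0.934 with isolated windows set to negative and 0.947 without f13b2, and that of Hoxc with Hoxd was 0.384 without f14b1. D' at 1 Mb was -0.06 in Hoxb without f13c1, and in Hoxc -0.03 with isolated windows set to negative and -0.10 without f13d4. D' across the Hoxa genes was -0.13 with a square of 15 windows.

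With isolated windows set to negative, mean D' of adjacent windows was 0.90 in Hoxa, 0.78 in Hoxb, 0.81 in Hoxc and 0.83 in Hoxd, a rise that the removal itself produces, the co-segregation ratio of Hoxa with Hoxc was 0.169 and the difference across the Hoxd cluster was 0.562 points, beside 0.622 without f14b1. With windows detected in 5 to 10% of libraries, D' at 1 Mb in Hoxa was 0.33, so that its sign depends on this filter. With the same filter it was 0.22 in Hoxb, and D' of adjacent windows in Hoxc was 0.68. With isolated windows set to negative, D' at 1 Mb in Hoxb was 0.034. With a square of 5 windows, D' across the genes was 0.35 in Hoxa, 0.50 in Hoxb and 0.0570 in Hoxc. Windows positive in 0 to 11 of 74 libraries, and 13 to 17 libraries per neighbourhood, limit the precision of every value here.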
